A study of Mus musculus with 2 samples.

Results

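The miR-200 family was examined in a streptavidin pulldown of biotin-labelled proteins and their RNA, made from cultured mouse skin keratinocytes. The members were chosen by name, as both arms of miR-200a, miR-200b, miR-200c, miR-141 and miR-429, which gave 10 of the 1477 mature miRNA names in the deposited tables. All 10 were found in both libraries. The data comprised 2 replicate libraries of 1 group. The keratinocytes carried exogenous Dsp-BirA, in which the biotin ligase BirA is joined to desmoplakin, a component of the desmosomal plaque, had been grown in a low-calcium medium and had been given biotin. Streptavidin beads were used to take up biotin-labelled proteins together with their RNA. The pulldown was therefore not made with an antibody to an Argonaute, the protein that carries a miRNA. How completely labelled proteins were taken up was not measured here. The promoter of the fusion is not given in the sources used here, and no input or unlabelled library was analysed here. No label says that the replicates came from separate cultures, so the spread between them may be technical.

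The miR-200 family is known as a guard of the epithelial state. Its members come from a pair of gene clusters and share nearly the same seed, the stretch near the 5′ end through which a miRNA recognises its targets. They are best known for repressing Zeb1 and Zeb2, transcription factors that turn off E-cadherin and other epithelial genes, and these factors in turn repress the miR-200 clusters. A miRNA hairpin yields a 5p and a 3p strand, and usually 1 of these is kept by an Argonaute while the other is lost.

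All 10 mature sequences and all 5 hairpins were found in the RefSeq-based table for GRCm38.p6 (mm10 is the build named in the submitters' processing notes). Both loci lie on the minus strand. Mir200b, Mir200a and Mir429 follow each other in the direction of transcription at chr4:156053905-156055750, a span of 1846 bases with 695 bases between Mir200b and Mir200a and 908 between Mir200a and Mir429. This span lies within that of the annotated lncRNA Gm13648 (chr4:156052715-156059802). Mir200c and Mir141 lie at chr6:124717914-124718390, a span of 477 bases with 336 between the hairpins, in the interval between the protein-coding genes Phb2 and Ptpn6. The gene table does not give exons, so the hairpins could not be placed in exons or introns.

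The 5 mature 3p strands carry the finding on seeds and loci, and are shown with the seed (bases 2 to 8 from the 5′ end) in capitals.
mmu-miR-141-3p (Mir200c/Mir141 locus): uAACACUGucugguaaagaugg
mmu-miR-200a-3p (Mir200b/Mir200a/Mir429 locus): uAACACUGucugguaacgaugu
mmu-miR-200c-3p (Mir200c/Mir141 locus): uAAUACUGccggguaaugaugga
mmu-miR-200b-3p (Mir200b/Mir200a/Mir429 locus): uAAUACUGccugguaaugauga
mmu-miR-429-3p (Mir200b/Mir200a/Mir429 locus): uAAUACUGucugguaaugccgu

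The 3p names form 2 seed groups, and each locus has members of both. miR-141-3p and miR-200a-3p share the seed AACACUG, while AAUACUG is the seed of miR-429-3p, miR-200b-3p and miR-200c-3p. Counted from 1 at the 5′ end and read from miR-200b-3p to miR-200a-3p, the seeds differ by U4C. No other mature name in the sequence table had either seed. miR-200a-3p and miR-141-3p had the same first 16 bases and differed by C17A and U22G. miR-200b-3p and miR-200c-3p had the same first 10 bases and differed by U11G and A22G, with miR-200c-3p 1 base longer. miR-429-3p shared 8 first bases with miR-200b-3p and differed from it by C9U, A19C, U20C and A22U. How the authors assigned reads that fit more than 1 of these is not given in the sources used here. The split between miR-141-3p and miR-200a-3p rests on few bases, as does that between miR-200b-3p and miR-200c-3p.

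The 5p strands are the minor products, and their seeds are less alike.
mmu-miR-141-5p: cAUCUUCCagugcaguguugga
mmu-miR-200a-5p: cAUCUUACcggacagugcugga
mmu-miR-200b-5p: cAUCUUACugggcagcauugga
mmu-miR-200c-5p: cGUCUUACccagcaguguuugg
mmu-miR-429-5p: gUCUUACCagacaugguuaga

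Only miR-200a-5p and miR-200b-5p had a common 5p seed, AUCUUAC. That of miR-141-5p differed from it by A7C and that of miR-200c-5p, read from miR-200a-5p, by A2G. Each of these 2 seeds, and the seed of miR-429-5p, belonged to no other name in the sequence table.

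The libraries held 3776893 and 4122955 miRNA counts, so that a count of 0 would allow up to 0.794 CPM (counts scaled to a library total of 1000000 miRNA counts) in replicate 1 and 0.728 CPM in replicate 2. Intervals and limits cover counting error only, because reads were amplified by PCR and no molecular identifiers are described. The counts of the libraries differed by more than sampling noise over all names (chi-square 60.6 per degree of freedom), so they are not 1 library deposited again. They were used as 2 replicates because they are labelled so, and the chi-square does not show that they came from separate cultures. Against its label as skin keratinocyte, the material held the epithelial miR-205-5p at 33640 and 32345 CPM and miR-203-3p at 4347 and 4480 CPM. The summed levels of marker miRNAs of other tissues were 24.9 and 101.1 CPM for 5 mesenchymal names, 6.09 and 11.9 CPM for 5 blood names, 34.7 and 20.4 CPM for 3 muscle names, 113.8 and 101.6 CPM for 2 neural names and 4.50 and 8.49 CPM for the liver name.

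The 10 names together took 6.81% of the miRNA counts in replicate 1 (95% Wilson interval from 6.79% to 6.84%) and 6.96% in replicate 2 (from 6.94% to 6.99%), a mean of 6.89% ± 0.106 (SD, n = 2). This was 257324 and 287065 counts. The whole family had 0.485 ± 0.0199 times the counts of the single name miR-31-5p, the most abundant in both libraries. It had more counts than miR-205-5p, which stood at 0.479 ± 0.0206 times the family. It also had 1.87 ± 0.0301 times the counts of the cluster of miR-183, miR-96 and miR-182, another group of miRNAs known from epithelia and sensory cells (SD, n = 2 for each).

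The level of the members ran from 3.97 CPM to 38480.4 CPM, and all 3p names lay above all 5p names in both libraries. miR-141-3p stood at 36263 CPM in replicate 1 and 38480.4 CPM in replicate 2. miR-429-3p stood at 11585 and 11440.3 CPM. miR-200b-3p stood at 9522 and 9294 CPM. The order so far was the same in both libraries, and no member's range met that of the next. miR-200c-3p followed with 6865 and 6351 CPM, and miR-200a-3p with 3632 and 3785 CPM. The order of the 3p names was therefore miR-141, miR-429, miR-200b, miR-200c and miR-200a in each library. Their ranks among all names were 4, 23, 26, 30 and 49 in replicate 1 and 4, 22, 25, 32 and 46 in replicate 2.

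**Figure D1:**
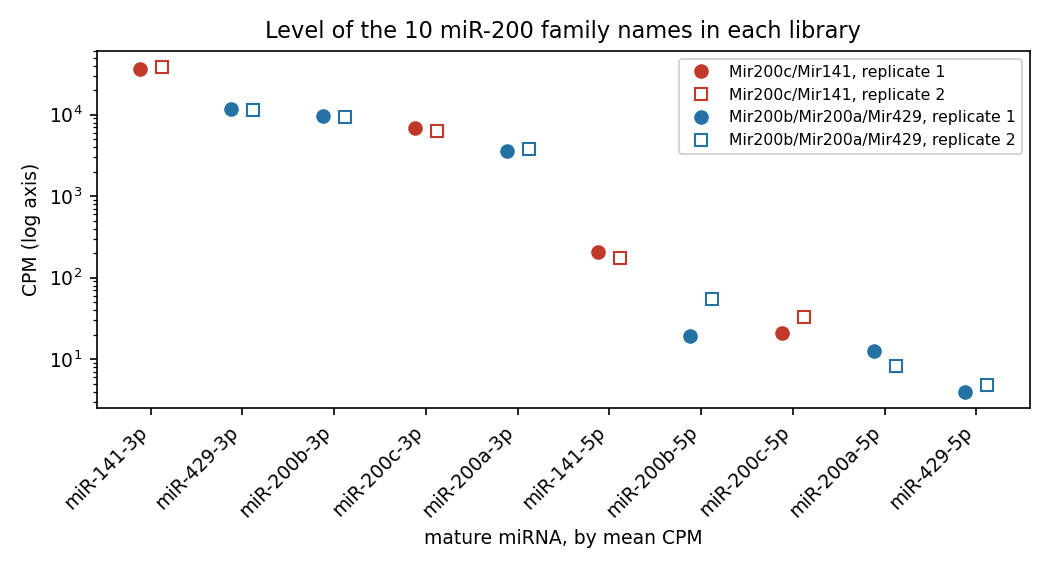
Level of each family name in CPM (log axis) in replicate 1 (filled circles) and replicate 2 (open squares), in the order of the mean, with the Mir200c/Mir141 locus in red and the Mir200b/Mir200a/Mir429 locus in blue. The 5 3p names, from 38480.4 down to 3632 CPM, all lie above miR-141-5p, the highest 5p name, at 207 and 173 CPM.

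Each step in the order of the 3p names exceeded the spread between the libraries. The ratio of miR-141-3p to miR-429-3p was 3.25 ± 0.165, that of miR-429-3p to miR-200b-3p was 1.22 ± 0.0101, that of miR-200b-3p to miR-200c-3p was 1.43 ± 0.0540, and that of miR-200c-3p to miR-200a-3p was 1.78 ± 0.150 (SD, n = 2 for each). A two-sided exact sign-flip test over only 2 libraries gives 0.5 as its smallest p-value, and it gave 0.5 for each of these 4 steps. These are ratios of reads, and ligation and amplification are known to differ between miRNAs.

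In the order of all names by mean CPM, several members sat beside names of nearly the same level. miR-429-3p lay between miR-27b-3p (11599 and 11992 CPM) and miR-30c-5p (11303 and 11341 CPM), and its range overlapped neither that of miR-27b-3p nor that of miR-30c-5p. miR-200a-3p lay below miR-93-5p (3693 and 3795 CPM), and these ranges overlapped. miR-200c-3p lay between miR-467a-5p (6599 and 7155 CPM) and miR-96-5p (6326 and 6190 CPM), and its range overlapped that of miR-467a-5p. miR-141-3p stood between miR-27a-3p and miR-205-5p, and miR-200b-3p between miR-690 and let-7b-5p, with no overlap on either side.

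The 2 loci were compared with both arms of each hairpin summed. The Mir200c/Mir141 locus held 63.6% of the family's counts in replicate 1 (from 63.5% to 63.8%) and 64.7% in replicate 2 (from 64.5% to 64.9%), a mean of 64.2% ± 0.741 (SD, n = 2). It had 1.79 ± 0.0577 times the counts of the Mir200b/Mir200a/Mir429 locus, although it has 2 hairpins and the other locus 3 (sign-flip p = 0.5, exact, the smallest possible). As shares of all miRNA counts the loci took 4.42% ± 0.119 and 2.47% ± 0.0132. The excess rested on miR-141-3p: with that name left out, the locus held 21.7% of what remained.

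The seed groups were compared over the 3p names. The AACACUG group (miR-141-3p and miR-200a-3p) held 58.8% of the 3p counts in replicate 1 (58.6% to 59.0%) and 60.9% in replicate 2 (60.8% to 61.1%), a mean of 59.9% ± 1.53 (SD, n = 2). The AAUACUG group held the other 40.1% ± 1.53 with 3 names. The ratio of the first to the second group was 1.43 in replicate 1 and 1.56 in replicate 2 (sign-flip p = 0.5, exact). This too rested on miR-141-3p, without which the AACACUG group held 11.9% of the remaining 3p counts.

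The loci fed the seed groups in opposite proportions. Of the AACACUG reads, 90.9% in replicate 1 and 91.0% in replicate 2 were assigned to miR-141-3p of the Mir200c/Mir141 locus. Of the AAUACUG reads, 24.5% and 23.4% were assigned to miR-200c-3p of that locus, and the rest to miR-200b-3p and miR-429-3p of the other. Seen by locus, the AACACUG member made up 84.1% and 85.8% of the 3p counts of Mir200c/Mir141, but 14.7% and 15.4% of those of Mir200b/Mir200a/Mir429. In every one of these 4 shares the difference between the libraries was small beside the difference between the loci or the seed groups.

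**Figure D2:**
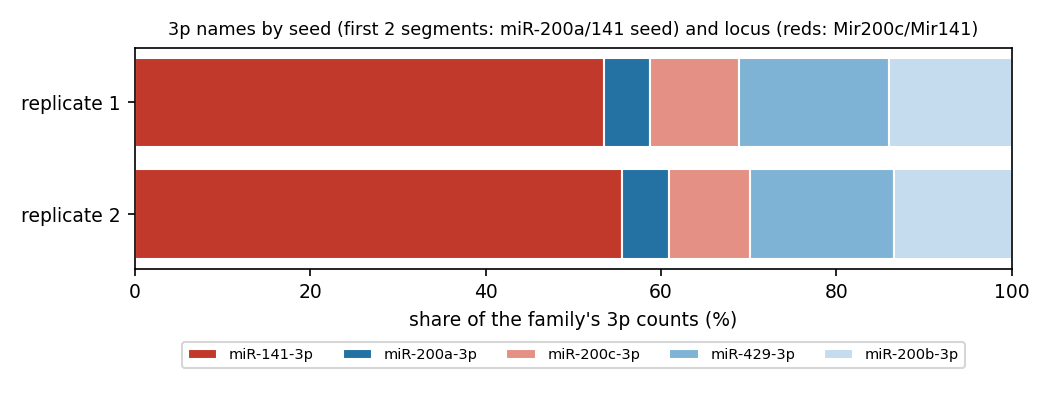
Share of the family's 3p counts (%) held by each 3p name in replicate 1 and replicate 2, with the AACACUG names first and the Mir200c/Mir141 names in reds. miR-141-3p fills more than any other name in both libraries, while the thin dark blue segment of miR-200a-3p shows the same seed from the other locus.

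Counterparts with the same seed but from different loci were compared directly. For each count of miR-200a-3p there were 9.98 of miR-141-3p in replicate 1 and 10.2 in replicate 2. The imbalance ran the other way in the AAUACUG group, where miR-200b-3p had 1.39 and 1.46 times and miR-429-3p 1.69 and 1.80 times the counts of miR-200c-3p. The clusters of miR-23 and miR-27, which also occur as a pair of loci, were set beside them. miR-27a-3p had 5.74 and 5.58 times the counts of miR-27b-3p, and miR-23a-3p had 1.03 and 1.01 times those of miR-23b-3p. The counts assigned to the miR-23 names were thus nearly level (mean ratio 1.02 ± 0.0159, SD, n = 2). Only the miR-27 names showed a clear excess of 1 locus. How reads that fit both names of such a pair were assigned is not known here either, so these ratios have the same limit. In the miR-200 pair the locus with more counts changed with the seed. With 2 libraries a difference between these pairs of loci could not be tested below a p-value of 0.5.

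**Figure D3:**
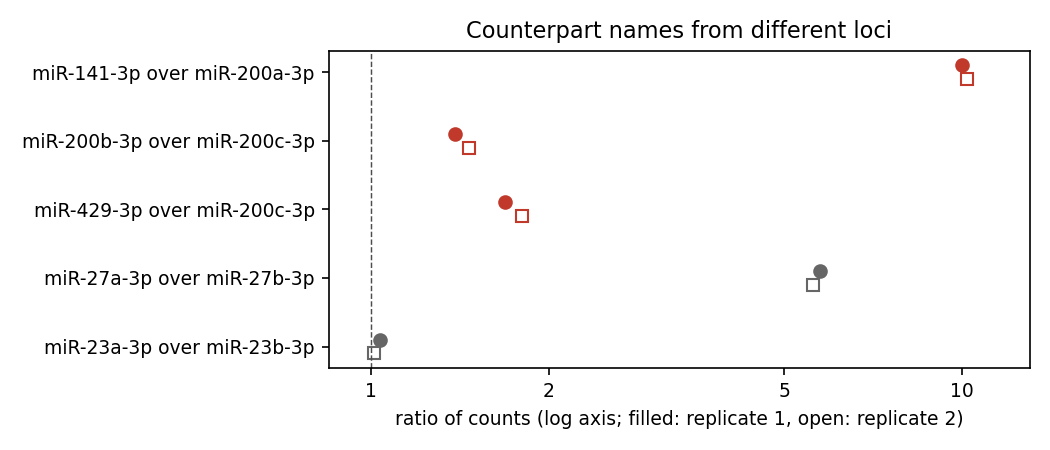
Ratio of counts between counterpart names from different loci (log axis), with replicate 1 filled and replicate 2 open, the miR-200 family in red and the miR-23 and miR-27 names in grey. The ratio of miR-141-3p to miR-200a-3p, 9.98 and 10.2, lies furthest from 1, and miR-23a-3p over miR-23b-3p lies next to it at 1.03 and 1.01.

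Names encoded by the same locus were recovered in unequal amounts in both arms. In the Mir200c/Mir141 locus the ratio of miR-141-3p to miR-200c-3p was 5.28 and 6.06 in the 2 libraries, and that of miR-141-5p to miR-200c-5p was 9.78 and 5.20. In the other locus the order of the arms was not the same: miR-429-3p was the highest 3p name and miR-429-5p the lowest 5p name in both libraries.

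The hairpins are shown 5′ to 3′ with both mature strands in capitals, the 5p strand first, since the arms are compared next.
Mir200b: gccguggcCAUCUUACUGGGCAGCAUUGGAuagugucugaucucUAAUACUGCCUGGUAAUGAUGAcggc
Mir200a: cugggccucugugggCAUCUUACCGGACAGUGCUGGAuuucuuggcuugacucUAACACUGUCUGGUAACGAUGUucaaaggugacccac
Mir429: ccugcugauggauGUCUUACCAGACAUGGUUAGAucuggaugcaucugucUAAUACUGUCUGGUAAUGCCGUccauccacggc
Mir200c: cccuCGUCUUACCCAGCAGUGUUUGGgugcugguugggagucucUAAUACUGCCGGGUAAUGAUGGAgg
Mir141: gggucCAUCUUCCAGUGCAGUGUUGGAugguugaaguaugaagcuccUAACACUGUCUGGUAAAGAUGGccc

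In the minimum free energy fold of each hairpin (RNAfold), 19 bases of the 3p strand paired with the 5p strand in Mir200b, Mir200a and Mir141, 18 in Mir200c and 16 in Mir429. The loop side between the strands was 14 bases long in Mir200b, 16 in Mir200a and Mir429, 18 in Mir200c and 20 in Mir141. All 5 3p strands begin with U. The 5p strands begin with C in 4 hairpins and with G in Mir429.

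The 3p strand dominated in every family hairpin. It held 99.61% of the family's counts in each library (mean 99.6% ± 0.00514, SD, n = 2), and the 5p strands together held 0.387% and 0.394%. All 5 hairpins had more 3p than 5p reads in both libraries at an adjusted p-value below the threshold (exact two-sided binomial test on reads, Benjamini-Hochberg over 164 hairpins). The same call was made for 54 (32.9%) of the 164 hairpins, which are those whose arms both appear in the tables and whose summed count reaches 100 in both libraries. In that whole set the 3p strand held most counts in 59 hairpins and the 5p strand in 105, and the median 3p share was 22.8%. Among the 59, the median was 95.6%, against 99.6% for the 5 family hairpins. A 3p share above 99% in both libraries was found in 19 of the 164 hairpins, and these 19 included all 5 of the family.

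The hairpins differed slightly in how one-sided they were. miR-429 was the most one-sided of the 5, with a 3p share of 99.97% in replicate 1 (15 5p counts against 43754 3p counts) and 99.96% in replicate 2 (20 against 47168), rank 3 of 164. By its mean, miR-141 was the least one-sided, with 99.43% (Wilson 95% interval 99.39% to 99.47%) and 99.55% (99.52% to 99.58%), rank 17. The range of miR-429 lay above those of the other 4 hairpins. The order of the other 4 changed between the libraries: miR-200b had the second highest share in replicate 1 (99.8%) and the lowest in replicate 2 (99.4%), miR-200a had 99.7% and 99.8%, and miR-200c had 99.7% and 99.5%.

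**Figure D4:**
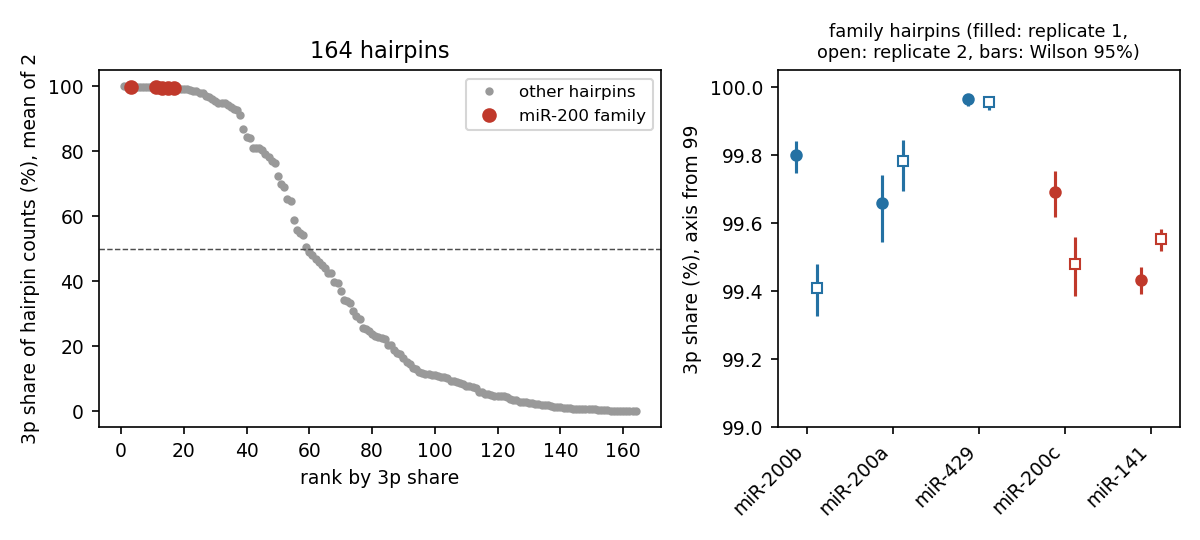
Left, 3p share of the counts of each of 164 hairpins (%, mean of both libraries) by rank, with the 5 family hairpins in red between rank 3 and rank 17. Right, the 3p share of each family hairpin in replicate 1 (filled) and replicate 2 (open) with Wilson 95% intervals, on an axis that starts at 99%, where only miR-429 stays above 99.9% in both.

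The first base of the strands was compared over the 117 of the 164 hairpins whose strands both had a sequence in the table. The dominant strand began with U in 63 (53.8%) and the other strand in 16 (13.7%). Among the 34 hairpins outside the family with a dominant 3p strand, that strand began with U in 16 (47.1%). U at the first base of the dominant strand was thus common in these libraries and is not particular to the family, in which it was found in 5 of 5 hairpins that are paralogues of each other and so not independent.

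The 5p strands had low counts and were less stable in order. miR-141-5p had 782 counts in replicate 1 and 713 in replicate 2, or 207 and 173 CPM, and was the highest 5p name in both. It held 78.5% and 63.0% of the family's 5p counts. miR-200b-5p had 72 and 228 counts (19.1 and 55.3 CPM), and miR-200c-5p 80 and 137 (21.2 and 33.2 CPM). These 2 names changed places: miR-200b-5p had 0.900 times the counts of miR-200c-5p in replicate 1 and 1.66 times in replicate 2, so they could not be ordered. miR-200a-5p had 47 and 34 counts (12.4 and 8.25 CPM), and miR-429-5p had 15 and 20 counts (3.97 and 4.85 CPM), so all 5p names exceeded the 3 counts that an observed 0 would leave possible. The Mir200c/Mir141 locus held 86.5% of the 5p counts in replicate 1 (84.3% to 88.5%) and 75.1% in replicate 2 (72.5% to 77.5%), more than its 63.6% and 64.7% of all family counts.

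The difference between the libraries was tested per name with an exact two-sided binomial test on reads, in which the library totals set the expected split, with Benjamini-Hochberg adjustment over the 1002 names whose mean count reached 10 and a threshold of 0.05. This compares 2 libraries, not conditions. Of the 10 family names 7 passed, where 70.6% of all names tested did, so the family's count was near the background. Of the 7, 4 were higher in replicate 2 (36.2% of all names) and 3 lower (34.3% of all names). The median log2 ratio of replicate 2 over replicate 1 was 0.021 over the 10 names and -0.014 over the 853 names tested that had counts in both libraries.

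The 3p names differed by little. As a log2 ratio, with replicate 2 in the numerator, the difference was 0.086 for miR-141-3p (95% interval 0.075 to 0.096) and -0.11 for miR-200c-3p (-0.14 to -0.087), so the neighbours of 1 locus moved in opposite directions. It was 0.059 for miR-200a-3p and -0.035 for miR-200b-3p, which also passed, and -0.018 for miR-429-3p, which did not (adjusted p = 0.0813, exact binomial test). All 5 lay inside the SD of the log2 ratio of 0.22 among the 59 names whose mean count reached 10000. Both AACACUG names had a positive ratio and the 3 AAUACUG names a negative one. The sign of all 5 was kept under TMM factors, DESeq2 size factors and scaling to the family total, but miR-200b-3p did not pass under DESeq2 size factors, and under the family total miR-200a-3p did not pass and miR-429-3p did.

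The largest difference was in miR-200b-5p, with a log2 ratio of 1.54 (95% interval 1.15 to 1.94, adjusted p = 4.02e-16, exact binomial test), from 72 to 228 counts. It was the only family name outside the SD of its count class, which was 1.04 for the 102 names with a mean of 100 to 300 counts. miR-200b-3p from the same hairpin changed by -0.035. miR-200c-5p was higher in replicate 2 with a log2 ratio of 0.65 (0.24 to 1.07), and miR-141-5p lower with -0.26 (-0.41 to -0.11), both past the threshold and inside the SD of their class. miR-200a-5p (-0.59, -1.27 to 0.074) and miR-429-5p (0.29, -0.75 to 1.36) did not pass. The variance between the libraries was on average 20.7 times the mean for names with 10 to 300 counts. Every count was also divided by this index, which comes from the same differences and so lowers the number of calls. With this, miR-141-3p was the only family name to pass, among 1.60% of all names. Its mean count of 147808 lies far above the range used for the index, and its ratio of 0.086 lies inside the class SD of 0.22. Its pass therefore does not show a difference beyond the spread among names of its level.

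**Figure D5:**
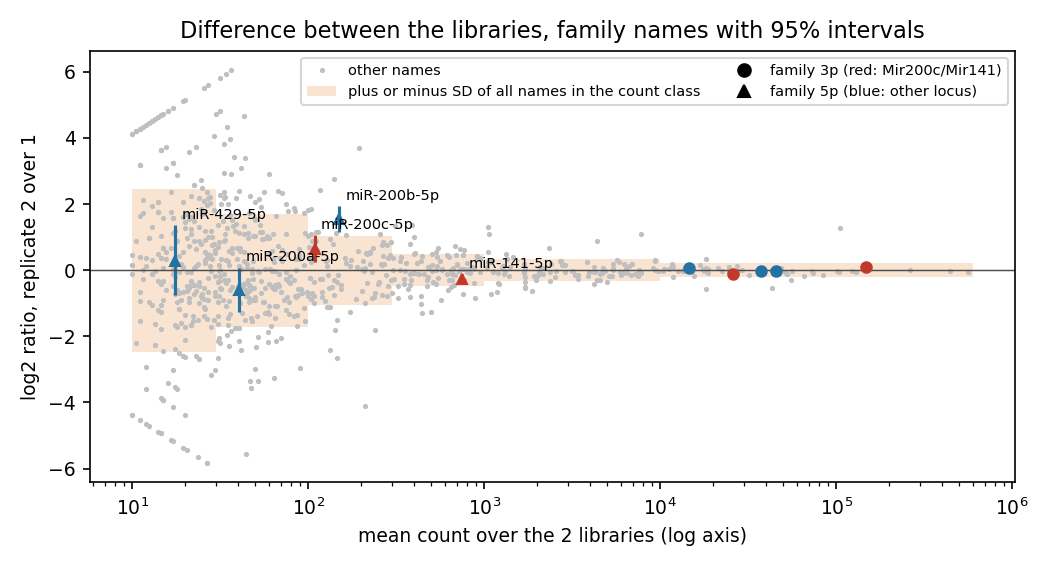
Log2 ratio of replicate 2 over replicate 1 against the mean count (log axis) for the 853 tested names with counts in both libraries, with the family names as circles (3p) and triangles (5p) with 95% intervals and the SD of each count class shaded. The 3p names lie close to 0 at high counts, and miR-200b-5p at 1.54 is the only family name outside the shaded band.

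Other miRNAs of the epithelial state were given the same test as a comparison. The list held miR-205-5p and miR-203-3p, the members of the miR-183 cluster that ZEB1 is known to repress together with the miR-200 genes (miR-183-5p, miR-96-5p and miR-182-5p), and the p53-induced miR-34a-5p. All 6 passed, 2 higher and 4 lower in replicate 2, beside the 70.6% of all names, and their log2 ratios ran from -0.11 (miR-34a-5p) to 0.044 (miR-203-3p). The list summed to 75908 and 74616 CPM. miR-182-5p stood at 18515 and 18267 CPM, miR-183-5p at 11881 and 12221 CPM and miR-34a-5p at 1199 and 1113 CPM. miR-214-3p was the highest of the mesenchymal names by its mean, with 26 and 364 counts. Of the 3 mesenchymal names deep enough to test it was the only one that passed, with a log2 ratio of 3.68, and its part in the other values was not tested. By the mean over the libraries, miR-150-5p was the highest blood name with 6 and 22 counts, miR-206-3p the highest muscle name with 122 and 78, miR-9-5p the highest neural name with 418 and 419, and miR-122-5p, the liver name, had 17 and 35.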

How the data were processed

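The authors deposited 1 table per library with a whole-number count per mature miRNA name, without normalization. The submitters' processing notes name cutadapt, Novoalign and mm10, with no versions. The miRNA reference and the handling of reads that fit several names or of PCR copies are not given in the sources used here. Rows that are not miRNA names (0.00265% and 0.000218% of the counts) stayed out of totals, and a name missing from a table was set to 0. CPM, shares, Wilson intervals, means with SD, and exact binomial tests were computed with scipy 1.17.1 (Python 3.11.15). TMM factors came from edgeR 4.0.16 and size factors from DESeq2 1.42.0, as alternatives. There is 1 group, so edgeR had no contrast to test. On counts simulated for 1002 names with sampling noise alone, 200 of them changed 2-fold, the binomial test called 62.0% of the changed names. The libraries differed by more than such noise, so this value does not give the sensitivity of the test on them. Sequences came from RefSeq (GRCm38.p6), with 1231 of 1477 names matched. Folds were made with RNAfold 2.7.2. The text names the 10 members, their neighbours by mean CPM, the comparison lists and the highest member of each marker list. Members and lists were chosen with earlier results of these data known. miR-142 names were respelled as in the tables.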

Additional observations from a re-analysis of the deposited data

How the results depend on the processing

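The family share of 6.89% rose to 8.03% when miR-31-5p was taken out of the total, and to 7.61% when names numbered 2000 and above were, both of which make the total smaller. Without miR-141-3p the Mir200c/Mir141 locus held 21.7% of the family and the miR-200a-3p and miR-141-3p seed group 11.9% of the 3p counts. The 3p share was 99.7% with each hairpin weighted equally. The number of family names that differed between the libraries, 7, was 2 when a 1.5-fold difference was also asked for (miR-200b-5p and miR-200c-5p). In that setting 52.7% of all names tested passed, so the family's 2 of 10 was below the background. The number was 1 with counts divided by the variance-to-mean index, where 1.60% of all names passed. It was 6 or 7 under the other 6 settings, where 61.1% to 70.9% of the names tested passed. Other settings left the shares of the family, locus, seed group and 3p strand within their SD. For leaving out a library this was fixed in advance, because each of 2 values lies within the SD of their mean. The share of all hairpins with a dominant 3p strand was 36.0% with the minimum of 100 counts. It was 44.0% with a minimum of 20 counts and 40.4% with a minimum of 1000. Leaving out each library gave 6.81% to 6.96% for the family, 63.6% to 64.7% for the locus, 58.8% to 60.9% for the seed group and 99.606% to 99.613% for the 3p share, with no test. Among the 10 log2 ratios only that of miR-429-5p changed sign, from 0.29 to -0.13 with counts divided by the index, and it passed the test in neither. No paired analysis was possible because the study has a single group. Counts below about 100 limit statements on miR-200a-5p and miR-429-5p in both libraries. In replicate 1 they also limit those on miR-200b-5p (72 counts) and miR-200c-5p (80 counts).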
